A study of Mus musculus with 11 samples.

Results

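Liver expression of interferon-stimulated genes was compared between 3 genotypes on Affymetrix arrays. The genes were 35 symbols, taken from probe sets annotated to that symbol alone, with the highest mean over the 11 arrays deciding where a gene had several. Of the 35, 34 had such a probe set, among 19939 genes tested in all. They comprised 24 targets of type I interferon, 5 GTPases known for induction by interferon gamma (Gbp3, Gbp7, Gbp11, Irgm1 and Iigp1), and 5 genes for antigen processing and its control (Irf1, Psmb8, Psmb9, Tap1 and Nlrc5). The sixth GTPase listed, Gbp6, had no probe set of its own. Probe sets were matched to the list by symbol, and the list itself was chosen with earlier results of these data known.

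Total RNA came from tumour-free liver of male mice aged 14 months. The Mdr2-KO/IL6-KO group (n = 4 arrays) lacked both Mdr2 and interleukin 6, the Mdr2-KO group (n = 4) lacked Mdr2, and the wild-type group (WT, n = 3) carried both. Mdr2, encoded by Abcb4, is the pump that carries phosphatidylcholine into bile, and its loss is known to cause bile duct injury, inflammation and fibrosis. The IL-6 genotype was tested only on the Mdr2-KO background, with no group that lacked IL-6 alone. The labels do not say whether any mice were littermates, and they state a strain, C57BL/6, for WT alone, so the strain background of the knockout groups is not known here.

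Type I interferons (alpha and beta) signal through a receptor whose kinases activate a complex that holds STAT2 and IRF9 and binds the interferon-stimulated response element, ISRE. Interferon gamma, made chiefly by T and NK cells, acts on genes through the gamma-activated site, GAS, and through IRF1. Its targets include the guanylate-binding proteins (Gbp), the immunity-related GTPases (Irgm1, Iigp1), the immunoproteasome and the peptide transporter TAP. Interleukin 6 signals mainly through STAT3.

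Abcb4 read as its labels say, at log2 7.83, 8.14, 8.32 and 8.08 in Mdr2-KO/IL6-KO and 7.63, 7.81, 7.54 and 7.98 in Mdr2-KO, against 9.80, 9.95 and 9.74 in WT. Il6 lay between 1.62 and 2.09 on all 11 arrays, at the bottom of the scale, which checks nothing about that label. Pearson r between arrays was 0.976 to 0.990, and the mean log2 level of 5 hepatocyte markers was 12.9 to 13.0 on every array. Sample titles begin with W for WT and with BIL for both knockout groups. What the letters stand for is not stated, and a difference of that kind between WT and knockout samples cannot be told apart from the Mdr2 genotype. The labels do not say that each array is a separate mouse, so a p-value here speaks of sample-to-sample spread, which may be technical. A pair of arrays stood low within their groups for the genes described here. WT replicate 2 was the lowest WT array for 30 of the 34 genes, as it was for 29.8% of all genes, and Mdr2-KO replicate 2 was the lowest of its group for 23 of 34, as it was for 25.2% of all genes. Calls among the 34 genes that were gained or lost without either array are given with the gene.

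The first comparisons ask how interferon-response transcripts stood in mice without Mdr2, with or without IL-6, relative to WT. Most of the 34 genes read below WT in both knockout groups. In Mdr2-KO/IL6-KO against WT, 5 of the 34 passed the test and all 5 were lower, namely Tap1, Irgm1, Gbp7, Iigp1 and Mx2. Of all genes 1.28% were called lower in that comparison, 2.91% higher and 4.19% in either direction (limma, Benjamini-Hochberg adjusted p under 0.05 over 19939 genes, two-sided). At an unadjusted p under 0.05, 18 of 34 were lower and 0 higher, against 6.1% of all genes lower, 9.4% higher and 15.5% in all. The arrays did not overlap for 12 of 34 genes, all lower, against 6.44% of all genes lower, 9.85% higher and 16.3% in all. The median log2 change of the 34 was -0.33, with 28 of 34 below 0, while the median of all genes was -0.00 and 50.2% of them were below 0. Leaving out single arrays moved the number called between 1, without WT replicate 3, and 9, without WT replicate 2 or without Mdr2-KO replicate 2. It was 2 without WT replicate 1, 3 without Mdr2-KO/IL6-KO replicate 1, 2 without Mdr2-KO/IL6-KO replicate 2 and 3 without Mdr2-KO/IL6-KO replicate 3.

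In Mdr2-KO against WT, with the same 3 WT arrays, none of the 34 genes was called by limma, while 1.26% of all genes were, 0.316% lower and 0.948% higher. At an unadjusted p under 0.05, 13 were lower and 1, Gbp11, was higher, against 4.1% of all genes lower, 5.69% higher and 9.79% in all. The arrays of 6 genes did not overlap, all lower, against 3.64% of all genes lower, 5.49% higher and 9.13% in all. The median log2 change was -0.26 with 29 of 34 below 0, where 51.7% of all genes were. Without Mdr2-KO replicate 3, 2 of the genes were called, Gbp7 (adjusted p = 0.0383) and Irgm1 (adjusted p = 0.0472). Without WT replicate 2, Gbp3 was called alone (adjusted p = 0.0209). Since liver was measured in bulk, fewer cells of a type and less RNA per cell cannot be told apart.

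**Figure D1:**
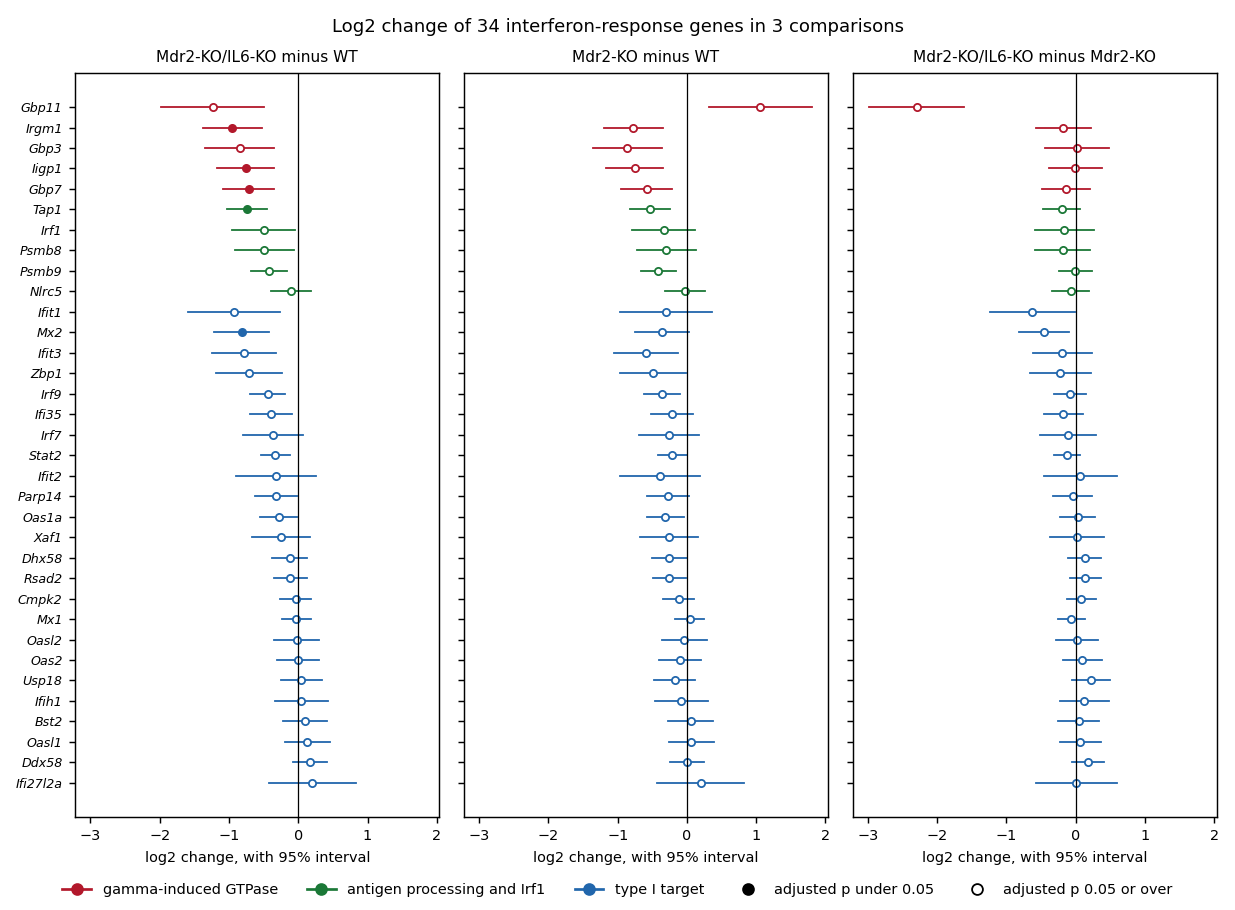
Log2 change of the 34 genes with its 95% interval (horizontal axis), for Mdr2-KO/IL6-KO minus WT, Mdr2-KO minus WT and Mdr2-KO/IL6-KO minus Mdr2-KO, one gene per line and coloured by class; filled points passed the test. Most points of the first 2 panels lie left of 0, with 5 filled in the first and none in the others, while the third panel scatters around 0 apart from Gbp11 at -2.30.

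The GTPases had the lowest median of the 3 classes. Their median log2 change was -0.85 in Mdr2-KO/IL6-KO and -0.76 in Mdr2-KO, both against WT. In these comparisons 3 of 5 and 0 of 5 were called, where 4.19% and 1.26% of all genes were. Without Gbp11, which is described further on, the medians were -0.80 and -0.77. The median for Mdr2-KO/IL6-KO reached -1.15 without WT replicate 2 and was -0.68 without WT replicate 1.

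Irgm1, an immunity-related GTPase known for mitochondrial quality control and for holding back its own family, read 7.05, 7.001, 7.08 and 7.44 in Mdr2-KO/IL6-KO livers and 7.26, 6.82, 7.73 and 7.46 in Mdr2-KO livers, against 8.33, 7.70 and 8.25 in WT livers (log2 level). All 4 Mdr2-KO/IL6-KO arrays lay below all WT arrays, while the highest Mdr2-KO array touched the WT range. Irgm1 was 1.94-fold lower in Mdr2-KO/IL6-KO than in WT (log2 change -0.95 ± 0.20 SE, adjusted p = 0.0161). The difference for Mdr2-KO was of a similar size but was not called (log2 change -0.77 ± 0.20 SE, adjusted p = 0.0929). The call was lost without WT replicate 1 (adjusted p = 0.0810) and without WT replicate 3 (adjusted p = 0.0735).

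Iigp1, the immunity-related GTPase that coats vacuoles of intracellular parasites, read 9.28, 9.16, 9.40 and 8.99 in Mdr2-KO/IL6-KO, and 9.37, 8.63, 9.35 and 9.48 in Mdr2-KO, against 10.13, 9.61 and 10.16 in WT. Neither knockout group overlapped WT. The mean stood 1.69-fold below WT in both: the log2 change was -0.76 ± 0.19 SE with an adjusted p = 0.0429 in Mdr2-KO/IL6-KO, and -0.76 ± 0.19 SE with an adjusted p = 0.0899 in Mdr2-KO. This was the weakest of the 5 calls, held in 4 of 11 fits that left out an array; the 7 that lost it left out Mdr2-KO replicate 1, any of the 4 Mdr2-KO/IL6-KO arrays, WT replicate 1 or WT replicate 3 (highest adjusted p = 0.176).

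Gbp7, a guanylate-binding protein of the chromosome 3 cluster, read 6.39, 6.68, 6.53 and 6.75 in Mdr2-KO/IL6-KO and 6.62, 6.51, 7.17 and 6.59 in Mdr2-KO, against 7.46, 6.93 and 7.52 in WT. Only Mdr2-KO replicate 3 among the knockout arrays reached the WT range. Gbp7 was 1.64-fold lower in Mdr2-KO/IL6-KO (a log2 difference of -0.72 ± 0.17 SE, adjusted p = 0.0327), a call lost without WT replicate 1 or 3 and without Mdr2-KO/IL6-KO replicate 1, 2 or 3 (highest adjusted p = 0.151, without WT replicate 3). In Mdr2-KO its log2 change was -0.58 ± 0.17 SE (adjusted p = 0.164). Its cluster neighbour Gbp3 read 5.87, 6.19, 5.89 and 5.98 in Mdr2-KO/IL6-KO, and 5.97, 5.41, 6.19 and 6.29 in Mdr2-KO, against 7.21, 6.21 and 7.06 in WT. WT replicate 2 lay within the Mdr2-KO range and just above the highest Mdr2-KO/IL6-KO array. Neither difference of Gbp3 passed (log2 change -0.85 ± 0.23 SE and adjusted p = 0.0596 in Mdr2-KO/IL6-KO; -0.86 ± 0.23 SE and adjusted p = 0.108 in Mdr2-KO). The difference of Mdr2-KO/IL6-KO from WT was called in 6 of 22 alternative settings, among them without WT replicate 2 (log2 change -1.15, adjusted p = 0.00937) and without Mdr2-KO replicate 2 (adjusted p = 0.0249), and was farthest from a call without WT replicate 1 (adjusted p = 0.251). That of Mdr2-KO was called without WT replicate 2 alone (log2 change -1.17, adjusted p = 0.0209).

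RefSeq start-site windows of GRCm38.p6 (250 bases before to 50 after the start) were available for 23 of the 35 genes, in 27 windows. The ISRE core was searched as GAAA, any 2 bases and GAAA, and GAS as TTC, any 3 bases and GAA, on both strands, with overlapping matches counted. The ISRE core stood in windows of 11 of the 23 genes (Bst2, Ddx58, Gbp3, Gbp7, Ifih1, Ifit1, Ifit3, Irgm1, Oas1a, Rsad2 and Stat2). Counted by window it was 11 of 27 (40.74%), and 3.443% of 32851 windows of all genes. GAS stood in windows of 7 genes (Bst2, Gbp7, Ifi35, Ifit2, Irf1, Oas1a and Psmb8), in 7 of 27 windows (25.93%), and in 8.298% of all windows. The windows of 3 GTPases, of the type I target Ifit3 and of Tap1 are shown. That of Gbp7 held both motifs, those shown for Gbp3, Irgm1 and Ifit3 held the ISRE core alone, and that of Tap1 held neither. Gbp7, Irgm1 and Tap1 were called in Mdr2-KO/IL6-KO against WT, Gbp3 and Ifit3 were not, and the called Iigp1 and Mx2 had no window; capitals mark the ISRE core and GAS matches.
Gbp7, chr3:142530086-142530385, plus strand: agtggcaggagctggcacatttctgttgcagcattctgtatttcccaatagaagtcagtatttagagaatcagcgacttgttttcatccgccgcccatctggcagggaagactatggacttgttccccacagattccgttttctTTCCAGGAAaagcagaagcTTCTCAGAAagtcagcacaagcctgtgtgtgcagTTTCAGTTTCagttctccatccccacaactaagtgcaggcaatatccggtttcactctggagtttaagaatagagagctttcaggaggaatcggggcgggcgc
Gbp3, chr3:142559794-142560093, plus strand: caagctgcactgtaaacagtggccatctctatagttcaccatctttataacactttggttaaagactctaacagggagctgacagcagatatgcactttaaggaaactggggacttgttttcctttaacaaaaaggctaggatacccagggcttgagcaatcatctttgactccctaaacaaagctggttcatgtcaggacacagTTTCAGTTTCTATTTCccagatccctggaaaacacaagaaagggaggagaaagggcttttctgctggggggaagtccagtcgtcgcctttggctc
Irgm1, chr11:48871371-48871670, minus strand: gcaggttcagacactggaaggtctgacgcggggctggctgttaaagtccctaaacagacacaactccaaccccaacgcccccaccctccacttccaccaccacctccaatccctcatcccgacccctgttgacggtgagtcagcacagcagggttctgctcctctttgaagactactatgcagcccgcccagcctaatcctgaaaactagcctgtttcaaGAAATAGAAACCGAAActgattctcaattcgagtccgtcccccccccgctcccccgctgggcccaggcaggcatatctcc
Ifit3, chr19:34583279-34583578, plus strand: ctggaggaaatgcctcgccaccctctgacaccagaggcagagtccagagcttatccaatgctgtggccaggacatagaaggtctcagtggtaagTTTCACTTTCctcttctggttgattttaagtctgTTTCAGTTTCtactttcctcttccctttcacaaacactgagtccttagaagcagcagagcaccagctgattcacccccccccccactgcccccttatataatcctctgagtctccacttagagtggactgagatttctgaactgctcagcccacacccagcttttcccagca
Tap1, chr17:34187306-34187605, plus strand: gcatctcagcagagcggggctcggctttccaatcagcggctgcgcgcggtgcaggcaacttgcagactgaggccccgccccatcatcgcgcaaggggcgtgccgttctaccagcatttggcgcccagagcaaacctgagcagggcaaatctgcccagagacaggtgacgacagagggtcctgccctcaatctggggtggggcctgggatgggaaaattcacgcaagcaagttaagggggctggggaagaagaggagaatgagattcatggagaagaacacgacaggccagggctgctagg
In the Gbp7 window an ISRE core began 53 bases before the start and GAS matches 106 and 87 bases before it. The Gbp3 window shown held a pair of overlapping ISRE cores, 45 and 39 bases before its start, and Irgm1 likewise, 30 and 24 bases before its own. Another Gbp3 window, chr3:142560106-142560405, held neither motif. Ifit3 held ISRE cores 156 and 122 bases before its start. The Tap1 window held neither motif, and 275 of its 300 bases are shared with the window of Psmb9, which is transcribed from the opposite strand. A match describes letters in a window and not a bound site.

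**Figure D2:**
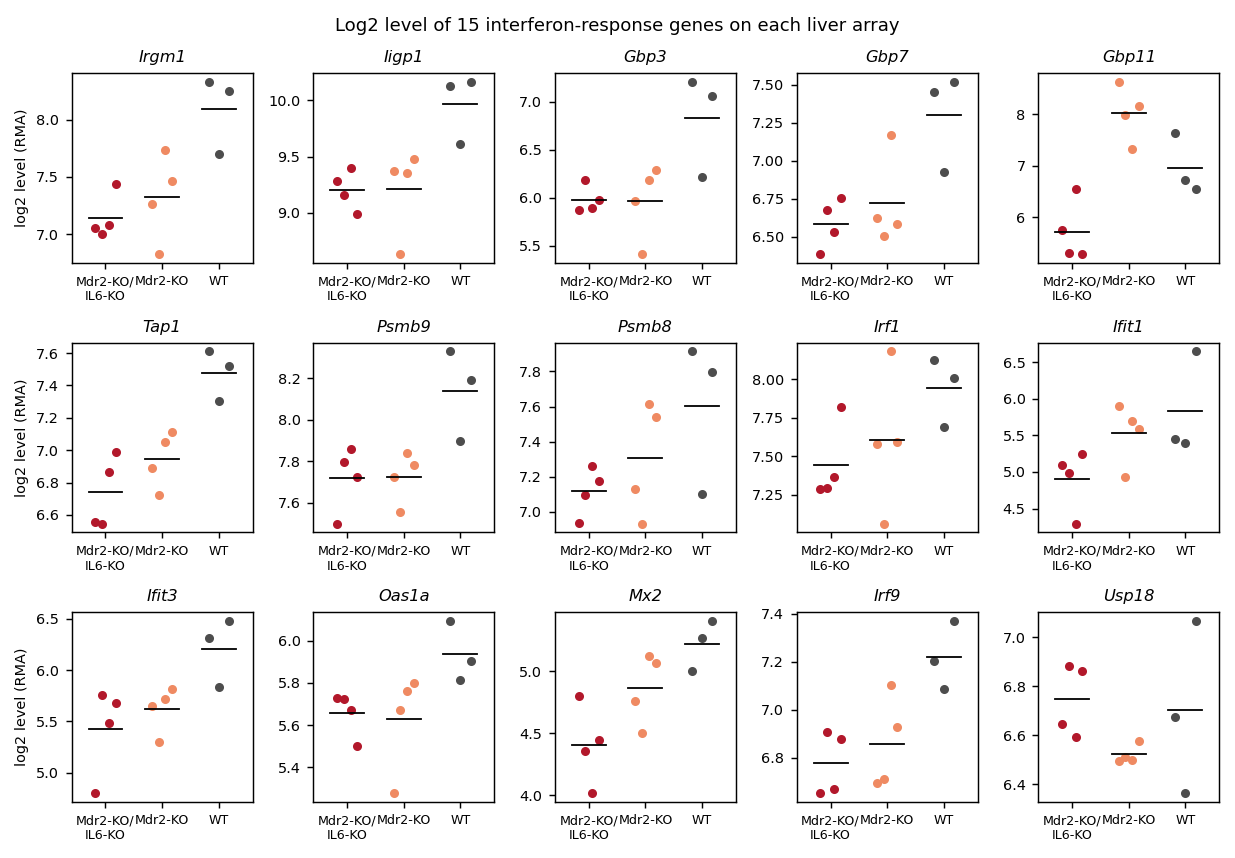
Log2 RMA level (vertical axis, its own range per gene) of 15 genes on each array, with Mdr2-KO/IL6-KO left, Mdr2-KO in the middle and WT right; points are arrays and lines are group means. WT points lie above both knockout groups for Irgm1, Iigp1, Tap1 and Psmb9 with at most 1 array touching, whereas Gbp11 is highest in Mdr2-KO and Usp18 overlaps between WT and both knockout groups.

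The 5 listed genes for antigen processing and its control had a median log2 change of -0.49 in Mdr2-KO/IL6-KO and -0.34 in Mdr2-KO. All 5 were below 0 in each, and 1 of 5 was called in Mdr2-KO/IL6-KO, where 4.19% of all genes were. Without WT replicate 2 the medians were -0.63 and -0.53, and without WT replicate 1 they were -0.33 and -0.24. The Mdr2-KO median was -0.17 without Mdr2-KO replicate 2. The 15 other antigen-processing genes measured had medians of -0.08 and -0.01, with 9 and 8 of 15 below 0. Tap1, a subunit of the transporter that feeds peptides to MHC class I, read 6.56, 6.55, 6.86 and 6.99 in Mdr2-KO/IL6-KO and 6.89, 6.72, 7.05 and 7.11 in Mdr2-KO, against 7.61, 7.30 and 7.52 in WT. No knockout array reached the WT range. Tap1 was 1.67-fold lower in Mdr2-KO/IL6-KO (a log2 difference of -0.74 ± 0.13 SE, adjusted p = 0.00606), and this call held in all 22 alternative settings, leaving out each array included. In Mdr2-KO the log2 change was -0.54 ± 0.13 SE and was not called (adjusted p = 0.0808).

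Psmb9, the immunoproteasome subunit that shares the Tap1 start region, read 7.50, 7.80, 7.86 and 7.72 in Mdr2-KO/IL6-KO and 7.73, 7.56, 7.84 and 7.78 in Mdr2-KO, against 8.33, 7.90 and 8.19 in WT. Both knockout groups lay wholly below WT, by about the same amount (-0.42 ± 0.12 SE in log2 and adjusted p = 0.0737 for Mdr2-KO/IL6-KO; -0.41 ± 0.12 SE and adjusted p = 0.151 for Mdr2-KO). Without WT replicate 2 the Psmb9 difference was called for Mdr2-KO/IL6-KO (log2 change -0.54, adjusted p = 0.0349). Psmb8, another immunoproteasome subunit, read 6.93, 7.09, 7.26 and 7.18 in Mdr2-KO/IL6-KO and 7.13, 6.93, 7.62 and 7.54 in Mdr2-KO, against 7.91, 7.10 and 7.80 in WT. Its WT replicate 2 lay within both knockout ranges, and neither difference was called (adjusted p = 0.232 and 0.719). Without that array Psmb8 was called in Mdr2-KO/IL6-KO (log2 change -0.74, adjusted p = 0.0454).

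Irf1, the transcription factor that carries much of the gamma response, read 7.29, 7.30, 7.36 and 7.82 in Mdr2-KO/IL6-KO and 7.58, 7.06, 8.18 and 7.59 in Mdr2-KO, against 8.13, 7.69 and 8.01 in WT. The groups overlapped, and the log2 change of -0.50 ± 0.21 SE in Mdr2-KO/IL6-KO was not called (adjusted p = 0.268), nor was that of -0.34 in Mdr2-KO (adjusted p = 0.699). A second, dimmer Irf1 probe set had log2 changes of 0.01 and -0.04 in these comparisons. Nlrc5, the transactivator of MHC class I genes, had 19 probe sets. The brightest had log2 changes of -0.11 in Mdr2-KO/IL6-KO and -0.03 in Mdr2-KO, and 17 of the other 18 were below 0 in each, with medians of -0.27 and -0.12.

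Among the 24 type I targets the differences from WT were smaller and mixed. The median log2 change was -0.19 in Mdr2-KO/IL6-KO, with 18 below 0, and -0.23 in Mdr2-KO, with 20 below 0. Without WT replicate 2 these medians of the type I target class were -0.28 and -0.34, and without WT replicate 3 they were -0.05 and -0.11. In Mdr2-KO it was -0.12 without Mdr2-KO replicate 2. In Mdr2-KO/IL6-KO 1 of 24 was called (4.17%), a share like the 4.19% of all genes, and in Mdr2-KO 0 of 24 were called by limma. Unadjusted p-values under 0.05 were found for 9 and 7 of them, all lower, where 6.1% and 4.1% of all genes were lower. Log2 changes in Mdr2-KO/IL6-KO ran from -0.93 for Ifit1 to 0.20 for Ifi27l2a.

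Mx2, a dynamin-like antiviral GTPase, read 4.80, 4.36, 4.02 and 4.44 in Mdr2-KO/IL6-KO and 4.76, 4.50, 5.12 and 5.07 in Mdr2-KO, against 4.999, 5.26 and 5.41 in WT. Mdr2-KO/IL6-KO arrays lay wholly below WT, and Mdr2-KO arrays overlapped both. Its mean over the 11 arrays, 4.79, lay below the 5.57 of the median gene. Mx2 was 1.76-fold lower in Mdr2-KO/IL6-KO than in WT (log2 change -0.82 ± 0.18 SE, adjusted p = 0.0217), and in Mdr2-KO its log2 change was -0.36 ± 0.18 SE (adjusted p = 0.563). The call was lost when replicate 2 or 3 of either Mdr2-KO/IL6-KO or WT was left out (highest adjusted p = 0.103, without WT replicate 3). Its relative Mx1, known to carry a disabling deletion in C57BL/6 mice, ranged from 3.77 to 4.12 over all 11 arrays, with log2 changes of -0.03 and 0.04.

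The Ifit genes encode proteins that bind viral RNA. Ifit3 read 4.80, 5.75, 5.48 and 5.68 in Mdr2-KO/IL6-KO and 5.65, 5.30, 5.72 and 5.81 in Mdr2-KO, against 6.31, 5.84 and 6.48 in WT. All 8 knockout arrays lay below the 3 WT arrays, yet neither difference was called (-0.78 ± 0.21 SE in log2 and adjusted p = 0.0620 for Mdr2-KO/IL6-KO; -0.59 ± 0.21 SE and adjusted p = 0.319 for Mdr2-KO). Ifit3 was called in Mdr2-KO/IL6-KO without WT replicate 2 (log2 change -0.97, adjusted p = 0.0446) and without Mdr2-KO replicate 2 (adjusted p = 0.0497). Ifit1 read 5.09, 4.99, 4.29 and 5.25 in Mdr2-KO/IL6-KO and 5.91, 4.93, 5.70 and 5.59 in Mdr2-KO, against 5.46, 5.39 and 6.65 in WT. The Mdr2-KO/IL6-KO arrays lay wholly below WT, whose replicate 3 stood above the other WT arrays, and the log2 change of -0.93 ± 0.31 SE in Mdr2-KO/IL6-KO was not called (adjusted p = 0.134). Without WT replicate 3 it was -0.52 (adjusted p = 0.474). Ifit2 had log2 changes of -0.32 in Mdr2-KO/IL6-KO and -0.39 in Mdr2-KO, neither called.

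Oas enzymes make the oligoadenylates that switch on RNase L. Oas1a read 5.73, 5.72, 5.67 and 5.50 in Mdr2-KO/IL6-KO and 5.28, 5.67, 5.76 and 5.80 in Mdr2-KO, against 6.10, 5.82 and 5.91 in WT. Although no knockout array reached WT, the gap to the lowest WT array was small and the log2 changes of -0.28 and -0.31 were not called (adjusted p = 0.292 and 0.397). Oas2, Oasl1 and Oasl2 had log2 changes between -0.02 and 0.13 in Mdr2-KO/IL6-KO, and between -0.10 and 0.06 in Mdr2-KO.

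The factors that carry the type I signal read slightly lower. Irf9, the DNA-binding subunit of the complex, read 6.65, 6.91, 6.67 and 6.88 in Mdr2-KO/IL6-KO and 6.69, 6.71, 7.10 and 6.93 in Mdr2-KO, against 7.20, 7.09 and 7.37 in WT. Mdr2-KO/IL6-KO lay wholly below WT, with a log2 change of -0.44 ± 0.12 SE that narrowly missed the threshold (adjusted p = 0.0545), and Mdr2-KO overlapped WT by 1 array (log2 change -0.36 ± 0.12 SE, adjusted p = 0.230). Irf9 was called in Mdr2-KO/IL6-KO without Mdr2-KO replicate 2 (adjusted p = 0.0452) or replicate 3 (adjusted p = 0.0324). Its partner Stat2 had log2 changes of -0.33 (adjusted p = 0.0779) and -0.21 (adjusted p = 0.509), and the 4 Mdr2-KO/IL6-KO arrays, 7.68 to 7.74, lay below the WT arrays, 7.95 to 8.09. Stat2 too was called in Mdr2-KO/IL6-KO without Mdr2-KO replicate 2. Irf7, the factor that amplifies interferon alpha production, had log2 changes of -0.37 and -0.26, with overlapping arrays.

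Of the sensors, Zbp1, which binds Z-form nucleic acids, averaged 6.37 ± 0.15 in Mdr2-KO/IL6-KO, 6.59 ± 0.31 in Mdr2-KO and 7.08 ± 0.56 in WT (SD, n = 4, 4 and 3). WT replicate 2, at 6.43, lay inside both knockout ranges, and the log2 change of -0.71 ± 0.22 SE in Mdr2-KO/IL6-KO was not called (adjusted p = 0.105), though it was without that array. The cytosolic RNA sensors Ddx58 (RIG-I) and Ifih1 (MDA5) had log2 changes of 0.17 and 0.05 in Mdr2-KO/IL6-KO and of -0.00 and -0.08 in Mdr2-KO. Dhx58, their regulator, had changes of -0.13 and -0.26. None of these sensors was called on all arrays.

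For the remaining type I targets no difference was called. Ifi35 and Parp14 had log2 changes of -0.39 and -0.32 in Mdr2-KO/IL6-KO and of -0.21 and -0.27 in Mdr2-KO. Rsad2 (viperin, an antiviral radical enzyme), the pro-apoptotic Xaf1 and the mitochondrial nucleotide kinase Cmpk2 lay between -0.25 and -0.04 in Mdr2-KO/IL6-KO, and between -0.26 and -0.12 in Mdr2-KO. Bst2 (tetherin) and Ifi27l2a were, with Oasl1, the type I targets above 0 in both comparisons: Bst2 had log2 changes of 0.10 and 0.05, and Ifi27l2a of 0.20 in each. Usp18, which strips ISG15 from proteins and restrains the type I receptor, read 6.65, 6.88, 6.59 and 6.86 in Mdr2-KO/IL6-KO and 6.50, 6.51, 6.50 and 6.58 in Mdr2-KO, against 6.67, 6.36 and 7.07 in WT. Its WT arrays spanned both knockout groups (log2 changes 0.05 and -0.18).

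The comparison of the knockout groups with each other asks what loss of IL-6 did in Mdr2-KO liver. None of the 34 genes was called by limma, while 0.00502% of all genes, 1 gene, was. At an unadjusted p under 0.05 there were 3 lower (Gbp11, Mx2 and Ifit1) and 0 higher, against 2.04% of all genes lower, 2.78% higher and 4.82% in all. The arrays of 2 did not overlap, against 2.51% of all genes: Gbp11 stood lower in Mdr2-KO/IL6-KO, as did 0.908% of all genes, and Usp18 stood higher, as did 1.6%. The median log2 change of the 34 was -0.03, with 19 of 34 below 0, where 46.1% of all genes were; it was 0.02 for type I targets, -0.16 for antigen processing and -0.07 for the GTPases without Gbp11. In this design a missed threshold leaves room for change: the 95% intervals ran from -0.57 to 0.22 on the log2 scale for Irgm1, from -0.39 to 0.38 for Iigp1, from -0.47 to 0.06 for Tap1 and from -0.25 to 0.23 for Psmb9. Mx2 had a log2 change of -0.46 ± 0.17 SE (adjusted p = 0.9995), Ifit1 of -0.63 ± 0.29 SE and Usp18 of 0.22 ± 0.13 SE (interval -0.05 to 0.50).

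Gbp11, a guanylate-binding protein of the chromosome 5 cluster, was highest in Mdr2-KO. It read 5.75, 5.32, 6.54 and 5.29 in Mdr2-KO/IL6-KO and 8.62, 7.97, 7.33 and 8.16 in Mdr2-KO, against 7.63, 6.72 and 6.54 in WT. Every Mdr2-KO/IL6-KO array lay below every Mdr2-KO array, and WT lay between, overlapping both. Between the knockout groups Gbp11 was 4.91-fold lower in Mdr2-KO/IL6-KO (a log2 difference of -2.30 ± 0.32 SE, interval -2.98 to -1.61), with an adjusted p = 0.0582 that just missed the threshold. It passed in 7 of 22 alternative settings, among them leaving out Mdr2-KO replicate 3 (adjusted p = 0.0261), Mdr2-KO/IL6-KO replicate 3 (adjusted p = 0.0130) or WT replicate 1 (adjusted p = 0.0332). Against WT its log2 change was -1.24 ± 0.34 SE in Mdr2-KO/IL6-KO (adjusted p = 0.0647) and 1.06 ± 0.34 SE in Mdr2-KO (adjusted p = 0.224). The difference of Mdr2-KO/IL6-KO from WT was called without Mdr2-KO replicate 3 (adjusted p = 0.0425) and without Mdr2-KO/IL6-KO replicate 3 (adjusted p = 0.0227).

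The other 7 Gbp genes measured read below WT in Mdr2-KO; whether Gbp11 differs from them was not tested. Of 5 interferon GTPases outside the list, Gbp4 and Gbp5 were called lower in Mdr2-KO/IL6-KO against WT, as were 1.28% of all genes. On chromosome 5, beside Gbp11, Gbp4 read 5.70, 5.72, 6.19 and 6.16 in Mdr2-KO/IL6-KO and 6.01, 6.36, 6.57 and 6.57 in Mdr2-KO, against 7.70, 6.42 and 7.23 in WT. It was 2.26-fold lower in Mdr2-KO/IL6-KO than in WT (log2 change -1.17 ± 0.25 SE, adjusted p = 0.0163), and in Mdr2-KO its log2 change of -0.74 was not called (adjusted p = 0.247). That change was -1.08 and called without WT replicate 2 (adjusted p = 0.0298), and -0.44 without WT replicate 1 (adjusted p = 0.702). The Gbp4 call was lost without WT replicate 1 or 3 or Mdr2-KO/IL6-KO replicate 1 or 2 (highest adjusted p = 0.0726). Gbp8 and Gbp9 had log2 changes of -0.65 and -0.51 in Mdr2-KO/IL6-KO and of -0.29 and -0.44 in Mdr2-KO, none called. On chromosome 3, Gbp5 read 4.24, 4.32, 4.17 and 3.86 in Mdr2-KO/IL6-KO and 4.36, 4.34, 4.58 and 4.48 in Mdr2-KO, against 5.35, 4.82 and 4.96 in WT. Its 3 groups did not overlap, and it was 1.85-fold lower in Mdr2-KO/IL6-KO than in WT (log2 change -0.89 ± 0.14 SE, adjusted p = 0.00230) while the log2 change of -0.60 in Mdr2-KO just missed (adjusted p = 0.0533) and was called without Mdr2-KO/IL6-KO replicate 4 (adjusted p = 0.0329). Gbp2b averaged 4.84 ± 0.12 in Mdr2-KO/IL6-KO, 4.98 ± 0.49 in Mdr2-KO and 5.88 ± 0.79 in WT (SD), with log2 changes of -1.04 (adjusted p = 0.0816) and -0.91 (adjusted p = 0.254). Without WT replicate 2, Gbp8, Gbp9 and Gbp2b were called lower in Mdr2-KO/IL6-KO as well. Gbp genes are near copies of each other, so probe sets of a cluster may share signal. In the RefSeq table the Gbp11 cluster lies on the same chromosome as Abcb4 and Il6, as do Oas1a, Oasl1 and Oasl2. Any part of that location in the results was not tested.

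**Figure D3:**
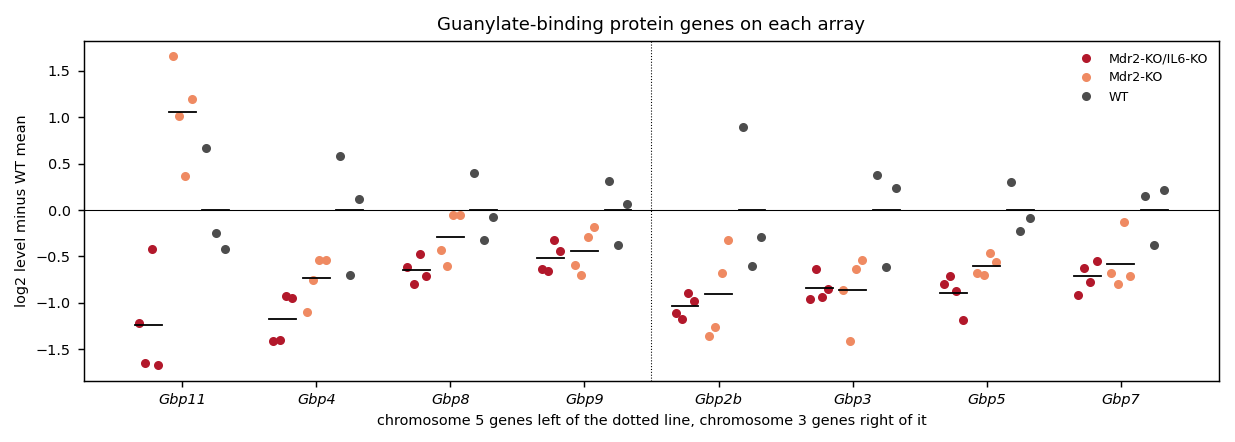
Log2 level minus the WT mean (vertical axis) of 8 guanylate-binding protein genes on each array; points are arrays and lines are group means, with Mdr2-KO/IL6-KO left, Mdr2-KO in the middle and WT right within each gene. Mdr2-KO lies above the WT mean for Gbp11 alone, by 1.06, and below it for the other 7 genes.

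Of 118 other interferon pathway genes measured out of 146 listed, 10 were called in Mdr2-KO/IL6-KO against WT (8.47%), 9 lower and 1 higher, where 4.19% of all genes were. In Mdr2-KO against WT 2 were called, both lower, where 1.26% of all genes were, and 0 between the knockout groups by limma, where 7 had an unadjusted p under 0.05 (5.93%, against 4.82% of all genes). Leaving out single arrays moved the 10 down to 5 (without WT replicate 1), and it was 6 without WT replicate 3 and without Mdr2-KO/IL6-KO replicate 1 or 2. The 2 became 0 without WT replicate 1, WT replicate 3 or Mdr2-KO replicate 4, and 4 without WT replicate 2. None of 16 interferon ligands and none of 6 receptors was called by limma in any comparison. Of the 16 ligands, 14 averaged below the median gene (log2 5.57), and whether they were detected was not assessed. The lowest p-values in Mdr2-KO/IL6-KO against WT belonged to the ligand Ifnk (log2 change 0.36, adjusted p = 0.218) and the receptor chain Ifngr1 (log2 change 0.35, adjusted p = 0.220). Ifng, the gamma ligand, read 4.17, 4.35, 4.15 and 4.41 in Mdr2-KO/IL6-KO and 4.10, 4.27, 4.09 and 4.31 in Mdr2-KO, against 4.50, 4.29 and 4.43 in WT. Its groups overlapped, with log2 changes of -0.13 and -0.21, neither called.

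Of 10 genes of JAK-STAT signalling, Stat3 alone was called, in Mdr2-KO/IL6-KO against WT, where 4.19% of all genes were. The transducer of IL-6 signals, it read 8.37, 8.53, 8.61 and 8.56 in Mdr2-KO/IL6-KO and 9.18, 8.74, 9.34 and 8.995 in Mdr2-KO, against 9.67, 9.65 and 9.34 in WT. Its Mdr2-KO/IL6-KO arrays lay below all others. Stat3 was 2.05-fold lower in Mdr2-KO/IL6-KO than in WT (log2 change -1.03 ± 0.13 SE, adjusted p = 0.000738), a call that held without any single array. Between the knockout groups it did not pass (log2 change -0.55 ± 0.12 SE, adjusted p = 0.628), nor in Mdr2-KO against WT (log2 change -0.49 ± 0.13 SE, adjusted p = 0.120).

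Of 16 genes of nucleic acid sensing, 2 were called lower in Mdr2-KO/IL6-KO against WT, as were 1.28% of all genes. These were the Toll receptor adaptor Myd88, at log2 change -0.40 ± 0.08 SE (adjusted p = 0.0152), and the transcription factor Irf5, at -0.43 ± 0.11 SE (adjusted p = 0.0373). The Myd88 call was lost without WT replicate 1 (adjusted p = 0.0801), and that of Irf5 without any WT array, without Mdr2-KO/IL6-KO replicates 1, 2 or 3, and without Mdr2-KO replicate 4 (highest adjusted p = 0.147).

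Of 39 other type I targets, 4 were called in Mdr2-KO/IL6-KO against WT and 2 in Mdr2-KO, against 4.19% and 1.26% of all genes. Parp9 and Dtx3l, which form an ADP-ribosylating ubiquitin ligase pair, were lower in both knockout groups. Parp9 read 7.35, 7.56, 7.48 and 7.49 in Mdr2-KO/IL6-KO and 7.61, 7.49, 7.58 and 7.53 in Mdr2-KO, against 8.01, 7.88 and 8.12 in WT. No knockout array reached the WT range, and the knockout groups overlapped each other. Its log2 change was -0.54 ± 0.09 SE in Mdr2-KO/IL6-KO (adjusted p = 0.00323) and -0.45 ± 0.09 SE in Mdr2-KO (adjusted p = 0.0202). Dtx3l had log2 changes of -0.41 ± 0.10 SE (adjusted p = 0.0274) and -0.47 ± 0.10 SE (adjusted p = 0.0292). The calls in Mdr2-KO were lost for Parp9 without WT replicate 1 or 3 or Mdr2-KO replicate 4, and for Dtx3l without any WT array or Mdr2-KO replicate 1 or 4 (highest adjusted p = 0.104 and 0.121). In Mdr2-KO/IL6-KO the Dtx3l call was lost without any WT array or Mdr2-KO/IL6-KO replicate 1 or 3 (highest adjusted p = 0.104), and the Parp9 call was kept. Ifitm1, a membrane protein that blocks viral entry, was lower in Mdr2-KO/IL6-KO (a log2 difference of -0.36 ± 0.09 SE, adjusted p = 0.0291), a call lost without WT replicate 1 or 3 or Mdr2-KO/IL6-KO replicate 1, 2 or 4 (highest adjusted p = 0.142, without WT replicate 1). Ly6e, a surface protein anchored by lipid, went the other way. It read 11.34, 11.36, 11.56 and 11.39 in Mdr2-KO/IL6-KO and 11.08, 11.13, 11.44 and 11.53 in Mdr2-KO, against 10.91, 10.59 and 10.73 in WT, and was 1.59-fold higher in Mdr2-KO/IL6-KO (a log2 difference of 0.67 ± 0.12 SE, adjusted p = 0.00759). In Mdr2-KO its log2 change of 0.55 missed the threshold (adjusted p = 0.05003), and it was called without Mdr2-KO replicate 1 (adjusted p = 0.0382) or replicate 2 (adjusted p = 0.0315).

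The 11 chemokines and enzymes known as gamma targets had median log2 changes of -0.17 in Mdr2-KO/IL6-KO and -0.16 in Mdr2-KO, both against WT. Among them 1 was called, in Mdr2-KO/IL6-KO against WT, where 4.19% of all genes were. Ccl5, a chemokine that T and NK cells themselves make, read 7.04, 6.54, 7.14 and 6.42 in Mdr2-KO/IL6-KO and 6.83, 7.04, 8.06 and 7.05 in Mdr2-KO, against 8.96, 7.59 and 8.18 in WT. It was 2.75-fold lower in Mdr2-KO/IL6-KO than in WT (log2 change -1.46 ± 0.32 SE, adjusted p = 0.0207), a call lost without WT replicate 1 or 3 or Mdr2-KO/IL6-KO replicate 2 or 4 (highest adjusted p = 0.101). Cxcl9, which draws T cells, read 6.35, 6.42, 6.78 and 6.62 in Mdr2-KO/IL6-KO and 5.94, 6.34, 7.62 and 6.78 in Mdr2-KO, against 8.47, 6.87 and 8.55 in WT. WT replicate 2 stood more than a log2 unit below the other WT arrays, and the log2 changes of -1.42 and -1.30 were not called (adjusted p = 0.0664 and 0.183), though both were without that array. Of 15 other antigen-processing genes measured out of 19 listed, none was called in any comparison. The MHC class I genes H2-K1, H2-D1, H2-T23 and H2-Q7 had no probe set of their own and were not tested. The lowest p in Mdr2-KO/IL6-KO against WT was that of H2-Q4, an MHC class I gene (log2 change -0.34, adjusted p = 0.219).

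Markers of cells that make interferon gamma mostly read below WT as well. Of 14 T and NK cell markers, 13 had log2 changes below 0 in Mdr2-KO/IL6-KO against WT, with a median of -0.33, and 3 were called lower: Cd8a (log2 change -0.58, adjusted p = 0.0464), Gzma (-0.60, adjusted p = 0.0412) and Gzmb (-0.77, adjusted p = 0.0495). Of all genes 50.2% were below 0 and 1.28% called lower in that comparison. In Mdr2-KO against WT 12 of 14 were below 0, where 51.7% of all genes were. The markers' median was -0.22, and 0 were called by limma. Of all genes, 4.1% were lower and 5.69% higher at an unadjusted p under 0.05, against 4 lower and 1 higher of the 14 markers. In Mdr2-KO/IL6-KO against WT it was 6.1% and 9.4% of all genes, and 7 and 1 of the markers. The log2 of their summed level was 8.36 to 8.55 in Mdr2-KO/IL6-KO and 8.43 to 8.75 in Mdr2-KO, against 8.63 to 9.32 in WT. Levels on this log2 scale have no 0; the dimmest of the 14 markers averaged 2.80 in Mdr2-KO/IL6-KO and 2.82 in Mdr2-KO, against 2.43 in WT. WT replicate 2, low for the interferon-response genes, was also the lowest WT array of this list. The part of T and NK cells in the results was not tested.

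Bile duct markers were higher in both knockout groups, 5 of 8 called in each, where 2.91% and 0.948% of all genes were called higher, with a log2 summed level of 9.52 to 9.98 in Mdr2-KO/IL6-KO and 9.59 to 9.91 in Mdr2-KO, against 8.61 to 8.81 in WT. Of 7 markers of recruited monocytes, Gpnmb and Mmp12 were called higher in both groups. The 8 Kupffer cell markers, 6 markers of plasmacytoid dendritic cells besides Bst2, 6 B and plasma cell markers and 8 neutrophil markers held no call in any comparison. In Mdr2-KO/IL6-KO against WT, 8 of 8 neutrophil markers were below 0 (median log2 change -0.25), as were 7 of 8 Kupffer cell markers (median -0.18) and 5 of 6 B and plasma cell markers (median -0.20). Below 0 in Mdr2-KO against WT were 7 of 8 neutrophil markers (median -0.12), 5 of 8 Kupffer cell markers (median -0.25) and 6 of 6 B and plasma cell markers (median -0.12). Of 7 endothelial markers, Stab1 and Lyve1 were called higher in Mdr2-KO/IL6-KO against WT (log2 changes 0.36 and 0.66, adjusted p = 0.0419 and 0.0357). Of all genes 2.91% were called higher there, and the list's median was 0.21. In Mdr2-KO the list's median was 0.15 and none was called by limma. At an unadjusted p under 0.05, 2 were higher, as were 5.69% of all genes. The part of these cell types in the results was not tested.

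**Figure D4:**
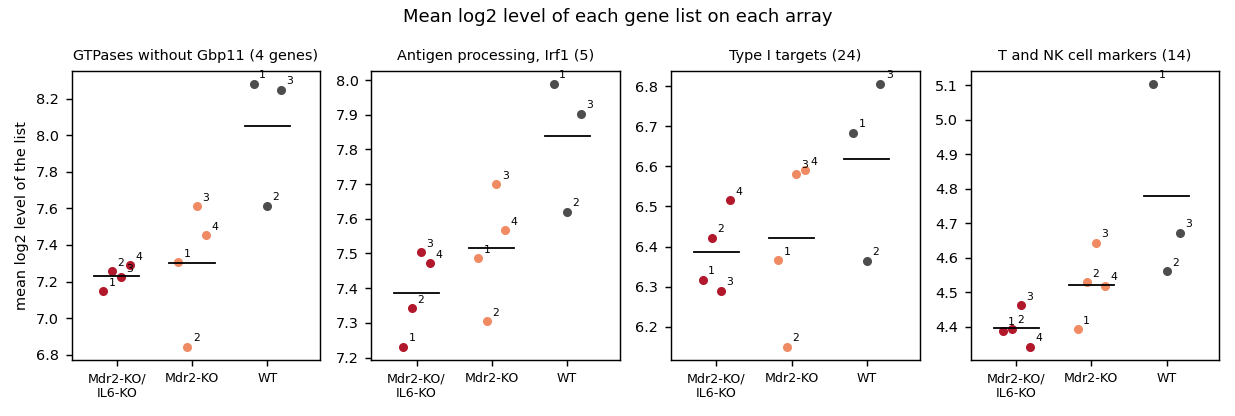
Mean log2 level (vertical axis, its own range per panel) of 4 GTPases without Gbp11, 5 antigen-processing genes, 24 type I targets and 14 T and NK cell markers on each array, with Mdr2-KO/IL6-KO left, Mdr2-KO in the middle and WT right; numbers are replicates and lines are group means. WT replicate 2 is the lowest WT point in all 4 panels and Mdr2-KO replicate 2 the lowest Mdr2-KO point in the first 3.

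Averaged over a class, single arrays showed the overlap between groups. The 4 GTPases without Gbp11 averaged 7.15 to 7.29 in Mdr2-KO/IL6-KO, 6.85 to 7.61 in Mdr2-KO and 7.61 to 8.28 in WT. WT replicate 2 and the highest Mdr2-KO array, replicate 3, both stood at 7.61. For antigen processing the ranges were 7.23 to 7.50 in Mdr2-KO/IL6-KO and 7.30 to 7.70 in Mdr2-KO, against 7.62 to 7.99 in WT. Type I targets overlapped between all 3 groups, at 6.29 to 6.52 in Mdr2-KO/IL6-KO, 6.15 to 6.59 in Mdr2-KO and 6.36 to 6.81 in WT.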

How the data were processed

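Liver RNA of the Mdr2-KO/IL6-KO, Mdr2-KO and WT groups was hybridised as biotinylated cRNA to single-colour Affymetrix arrays, after Trizol extraction from snap-frozen tissue, per the labels' protocols. The authors deposited log2 RMA levels per probe set (RMA and Partek, per the submitters' processing notes; versions not given in the sources used here), for 35557 probe sets on 11 arrays. Precision is limited by the number of arrays, and detection over background was not assessed. RMA usually brings arrays to a common distribution, so a difference is relative to the other genes of the array.

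Platform annotation gave 21789 probe sets 1 symbol, 1621 several and 12147 none. Those with 1 symbol gave 19939 genes, the brightest probe set standing for each of 998 genes with several; 19856 matched RefSeq by Entrez identifier. One limma model (3.58.1, R 4.3.3; Python 3.11.15, pandas 2.3.3 and numpy 2.4.6 for tables) with a mean per group, 3 contrasts and eBayes was fitted to all genes, two-sided, with Benjamini-Hochberg adjustment over 19939 genes, and tested on simulated data; called means an adjusted p under 0.05. Intervals are 95%. Both comparisons with WT share the WT arrays. Groups come from the sample labels; replicate numbers are in accession order and pair nothing. Genes with values on every array are those called and the 3 with the lowest p per class and comparison; of other lists, those called or else the gene with the lowest p, with Gbp genes and Cxcl9 added for their family or pathway. Genes and lists were chosen with earlier results of these data known. Alternatives were array weights, normalizations, moderation, dim genes, probe set choice, groups fitted, threshold, and arrays left out.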

Additional observations from a re-analysis of the deposited data

Results flagged for a closer look

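In groups of 4 arrays, 4 of 112 groups over 56 genes held an array whose gap to its nearest neighbour exceeded Dixon's critical share of the range at the 95% level, where chance flags about 1 group in 20. Iigp1 was lowest in Mdr2-KO replicate 2, at log2 8.63, with the other Mdr2-KO arrays at 9.35 to 9.48. Irf1 was highest in Mdr2-KO/IL6-KO replicate 4, at 7.82, with the others at 7.29 to 7.36. Irf5 was lowest in Mdr2-KO replicate 2, at 6.47, with the others at 6.62 to 6.65. The chemokine Cxcl10 was also lowest in Mdr2-KO replicate 2, at 5.65, with the others at 6.30 to 6.38.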

How the results depend on the processing

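No paired analysis was possible because the labels give no replicate numbers shared between groups. Over 22 settings and 25 named genes, 1485 gene results kept their direction and side of the threshold, 80 lost it, 55 gained it and 21 changed sign; of class medians and counts, 262 stayed within range and 41 moved. The cause was not tested. Called members in Mdr2-KO/IL6-KO against WT (5) were 1 at an adjusted p under 0.01, 14 with array weights, 1 without moderation, 10 among brighter genes, 8 with only the 2 groups fitted, 9 without Mdr2-KO replicates 2 and 3 together (chosen after seeing the data), and 1 to 9 leaving out 1 array. In Mdr2-KO against WT (0) they were 3 with array weights and 0 to 2 leaving out 1 array. Between the knockout groups (0) they were 1 with array weights, cyclic loess, median centring or brighter genes, and 0 to 1 leaving out 1 array. Other pathway genes called in Mdr2-KO/IL6-KO against WT (10) were 4 at 0.01, 25 with array weights, 17 among brighter genes, and 5 to 15 leaving out 1 array. In Mdr2-KO against WT (2) they were 0 at 0.01, 6 with array weights, 4 with trend and robust, 0 without moderation, 0 with 2 groups fitted, 0 without Mdr2-KO replicates 2 and 3, and 0 to 4 leaving out 1 array. The GTPase median in Mdr2-KO/IL6-KO against WT was -1.15 without WT replicate 2, against -0.85; leaving out 1 array moved it from -1.15 to -0.68.

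None of the log2 changes that changed sign was called. The largest of them on all arrays was -0.30, for Ifit1 in Mdr2-KO against WT. Ranges are over fits leaving out 1 array. Between the knockout groups, Gbp3 ran from -0.167 to 0.124, and was -0.084 with array weights and -0.146 without Mdr2-KO replicates 2 and 3. Gbp7 ran from -0.207 to 0.014, Ifit3 from -0.301 to 0.017, Iigp1 from -0.195 to 0.088, Irf1 from -0.344 to 0.029, Oas1a from -0.089 to 0.086 and Psmb9 from -0.063 to 0.066. In Mdr2-KO against WT, Ifit1 ran from -0.519 to 0.107 and Usp18 from -0.348 to 0.0028. In Mdr2-KO/IL6-KO against WT, Usp18 ran from -0.124 to 0.228, and was -0.029 with array weights.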

Other observations

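Several interferon GTPases were measured only by probe sets annotated to more than 1 gene, which were assigned to no single gene and entered no test. The probe set shared by Gbp11, Gbp10, Gbp9, Gbp6, Gbp8 and Gbp4 read 7.02, 7.12, 7.62 and 7.27 in Mdr2-KO/IL6-KO and 7.98, 7.81, 7.90 and 8.20 in Mdr2-KO, against 8.86, 7.83 and 8.80 in WT. All Mdr2-KO/IL6-KO arrays lay below all others, and Mdr2-KO overlapped WT. The probe set of Irgm2 and Igtp averaged 7.02 ± 0.26 in Mdr2-KO/IL6-KO and 7.42 ± 0.32 in Mdr2-KO, against 8.32 ± 0.47 in WT (SD, n = 4, 4 and 3). A first probe set of Tgtp1 and Tgtp2 averaged 5.95 ± 0.34 in Mdr2-KO/IL6-KO and 6.47 ± 0.58 in Mdr2-KO, against 7.69 ± 0.96 in WT, and a second gave 6.07 ± 0.23 and 6.59 ± 0.58, against 7.70 ± 1.02. That of Gbp2 and Gbp2b averaged 5.90 ± 0.21 in Mdr2-KO/IL6-KO and 5.93 ± 0.59 in Mdr2-KO, against 6.80 ± 0.80 in WT.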
